A study of Rattus norvegicus with 24 samples.

Results

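The slow-fibre sarcomere genes are a set of 8 rat genes, Tnnc1, Tnni1, Tnnt1, Tpm3, Myl2, Myl3, Myh7 and Atp2a2, chosen by gene symbol. Of these, 5 were analysed among the 10851 genes of the series: Tnnc1, Tnni1, Tpm3, Myl3 and Atp2a2. Tnnt1, Myl2 and Myh7 were not analysed here. RNA from the medial gastrocnemius of the left leg was sequenced in 24 male Wistar rats, 6 in each of 4 groups. Monocrotaline, a plant alkaloid that damages the lung vessels and overloads the right heart, was injected once to bring on heart failure and cardiac cachexia (CC), and the control rats received saline. Sed rats were given saline and kept sedentary, and Ex rats were given saline and trained on a treadmill. CC-Sed rats were given monocrotaline and kept sedentary, and CC-Ex rats were given monocrotaline and trained. Each library was 1 rat, and the model was not limited to muscle, since monocrotaline acts on the whole animal.

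Skeletal muscle is a mosaic of slow (type I) and fast (type II) fibres, which build the same contractile machine from different gene copies. In a slow fibre, calcium binds slow troponin C, troponin I then releases its block, tropomyosin moves along actin, and the slow myosin heavy and light chains pull. The pump SERCA2 returns the calcium to the sarcoplasmic reticulum. The medial gastrocnemius is mainly a fast muscle.

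The rats had total counts of 37816239 to 50350554, and no count in the table was below 10. The muscle genes Ckm, Acta1, Des, Ttn, Neb and Mb together held between 63492 and 117731 CPM (counts scaled to a common library total) in each rat, so the tissue label and its markers went together. Over all genes, CC-Ex replicate 5 lay apart from the other libraries on the first principal component, at 96.5 units, where the next highest rat was at 51.7. The members' differences between groups that involve CC-Ex are therefore also given without this rat. Differences of other genes, and the spreads and correlations in CC-Ex, are given with it.

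RefSeq start sites (build GRCr8) were given for Tnni1, Tpm3, Myl3 and Atp2a2 of the analysed members. The stretches upstream of the Tnni1, Myl3 and Atp2a2 starts are shown because these genes moved together from rat to rat, and 3 of the motifs known from muscle promoters can be read in them. Capitals mark E-boxes (CANNTG), the MCAT element (CATTCC) and the CArG box, each searched on both strands. The windows were chr13:49781279-49781528 for Tnni1, chr8:119616844-119617076 for Myl3 and chr12:39733269-39733518 for Atp2a2, all on the plus strand.
Tnni1: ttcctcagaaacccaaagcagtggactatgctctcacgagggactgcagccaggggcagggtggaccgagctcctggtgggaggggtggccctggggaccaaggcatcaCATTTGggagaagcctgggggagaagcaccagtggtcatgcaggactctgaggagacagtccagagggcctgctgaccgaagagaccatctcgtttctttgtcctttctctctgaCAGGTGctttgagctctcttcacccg
Myl3: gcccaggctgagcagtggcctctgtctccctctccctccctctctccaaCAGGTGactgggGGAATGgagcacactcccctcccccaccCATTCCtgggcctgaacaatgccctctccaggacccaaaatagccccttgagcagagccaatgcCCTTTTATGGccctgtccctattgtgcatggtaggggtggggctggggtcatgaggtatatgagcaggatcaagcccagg
Atp2a2: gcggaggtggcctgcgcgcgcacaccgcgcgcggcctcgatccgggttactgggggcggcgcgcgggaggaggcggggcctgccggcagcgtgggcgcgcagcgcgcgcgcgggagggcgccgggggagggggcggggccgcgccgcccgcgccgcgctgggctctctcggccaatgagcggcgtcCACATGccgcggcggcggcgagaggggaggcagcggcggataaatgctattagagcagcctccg
Myl3 held 2 MCAT elements and 1 CArG box. The Myl3 window is 233 bases long, since the last 17 before this start lie inside the annotated gene, and motifs were counted over the full 250. Among the 250 bases upstream of 33469 starts, an MCAT element was found in 12.1% and a CArG box in 1.5%. E-boxes were found in all 3 windows, but 65.5% of all promoters hold one. None of the windows held a MEF2 motif, which 2.96% of all promoters hold. The core letters GGAAA of the NFAT motif, present in 56.9% of all promoters, were found upstream of each of the 3 Tpm3 starts and in none of the other 3 genes. A match here is a run of letters and not a measured binding site.

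Tnnc1 encodes slow troponin C, the calcium sensor of the thin filament. The lowest Sed rat had 6.62 CPM and the highest 311, around a median of 138, and the CC-Sed rats spanned 9.32 to 1111 CPM around a median of 713. In Ex it ran from 3.74 to 928 CPM with a median of 275, and in CC-Ex from 0.375 to 1003 CPM with a median of 488. CPM were computed after TMM scaling of the library sizes. Sed replicates 2, 3 and 5, Ex replicate 1 and CC-Sed replicate 2 were low, and CC-Ex replicates 4 and 5 were lowest of all, so that every group overlapped every other. Between the lowest and the highest rat, Tnnc1 differed 47.0-fold among Sed rats, 248-fold among Ex rats, 119-fold among CC-Sed rats and 2673-fold among CC-Ex rats. CC-Ex replicates 4 and 5 had only 21 and 16 counts, near the lowest count of 10 in the table, so the CC-Ex fold is imprecise.

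Tnni1 encodes slow troponin I, the inhibitory subunit. The lowest Sed rat had 7.66 CPM and the highest 449.6, around a median of 196, and the CC-Sed rats spanned 11.2 to 1293 CPM around a median of 705. In Ex it ran from 5.62 to 1268 CPM (median 378) and in CC-Ex from 0.915 to 838 CPM (median 465). The same rats were low as for Tnnc1, and in the sedentary comparison 4 of 6 CC-Sed rats were above every Sed rat.

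Tpm3 encodes slow alpha-tropomyosin, which covers the myosin sites on actin, and the gene also gives forms used outside muscle that gene-level counts do not separate. The lowest Sed rat had 13.0 CPM and the highest 538, around a median of 179.7, and the CC-Sed rats spanned 25.4 to 2043 CPM around a median of 786. In Ex it ran from 20.1 to 1620.1 CPM (median 505) and in CC-Ex from 9.60 to 1694 CPM (median 856). Only 3 of 6 CC-Sed rats exceeded every Sed rat, because CC-Sed replicate 1, high for the other members, had 498 CPM of Tpm3.

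Myl3 encodes the slow essential light chain of myosin. The lowest Sed rat had 13.1 CPM and the highest 962, around a median of 459, and the CC-Sed rats spanned 35.1 to 2933 CPM around a median of 1374. In Ex it ran from 30.5 to 2623 CPM (median 705) and in CC-Ex from 3.75 to 1874 CPM (median 1148). The lowest Sed rat was replicate 5, as for Tnnc1, and 4 of 6 CC-Sed rats were above every Sed rat. In the trained groups, CC-Ex replicates 4 and 5 were below every Ex rat.

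Atp2a2 encodes SERCA2, the calcium pump of slow fibres, whose other splice form is used in many cell types. The lowest Sed rat had 713 CPM and the highest 1923, around a median of 1122, and the CC-Sed rats spanned 1089 to 4431 CPM around a median of 2704. In Ex it ran from 941 to 4268 CPM (median 1721) and in CC-Ex from 668 to 3776 CPM (median 2454). The low rats were again low, but the highest rat exceeded the lowest by only 2.70-fold in Sed and 5.65-fold in CC-Ex. In the plot of levels by rat, the lowest Atp2a2 value of any rat is 668 CPM.

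**Figure D1:**
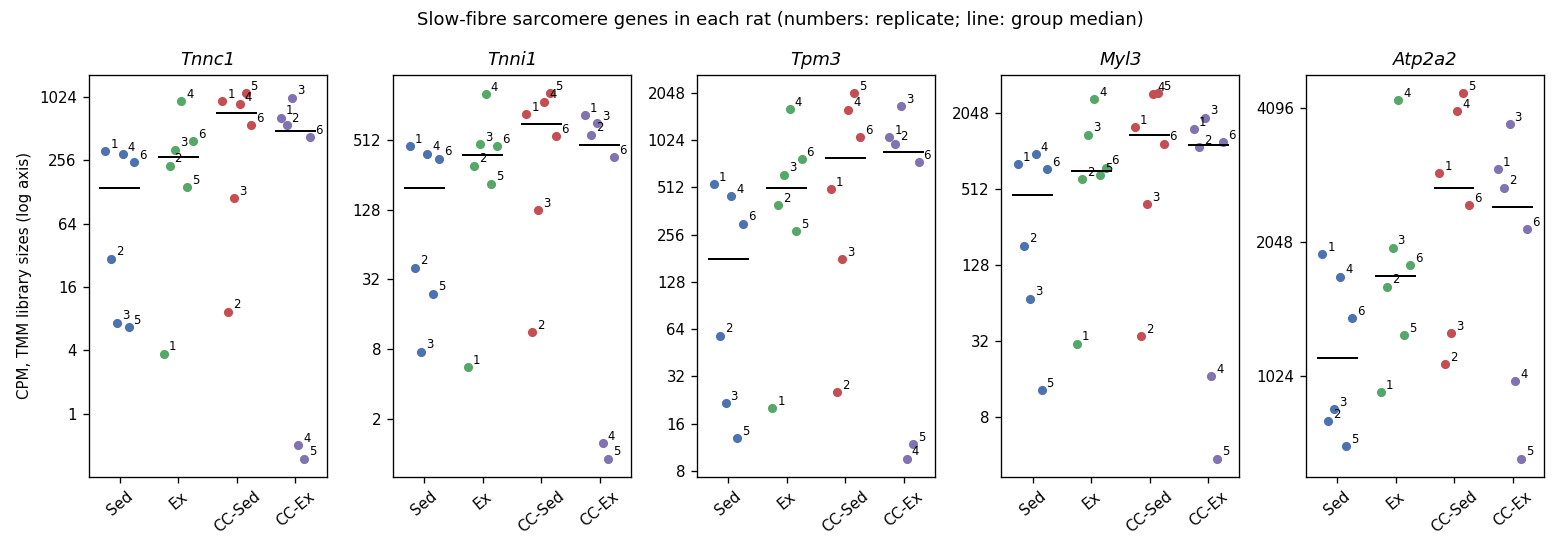
Level of each member in each rat (CPM with TMM library sizes, log axis) in the 4 groups. Points are rats numbered by replicate and lines are group medians. The medians of Tnnc1 were 138, 275, 713 and 488 CPM, and CC-Ex replicates 4 and 5 lie far below the other 4 CC-Ex rats for the 4 sarcomere genes.

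The spread between rats of a group was compared with that of all genes. The within-group standard deviation (SD) of log2 CPM, pooled over the 4 groups with 20 degrees of freedom, was 3.56 for Tnnc1, 3.26 for Tnni1, 2.84 for Myl3, 2.64 for Tpm3 and 0.806 for Atp2a2. The median over all genes was 0.301. No gene of the table had a larger pooled SD than Tnnc1, 1 had a larger SD than Tnni1, 3 than Myl3 and 4 than Tpm3. For Atp2a2, 554 genes (5.11%) had a larger SD. These ranks hold only for genes in the table, which has no count below 10 in any rat. In bulk tissue, fewer slow fibres in the piece sampled and less slow-fibre RNA per fibre cannot be told apart.

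The first question was whether the members differed between Sed and CC-Sed, which compares cachexia without training. Every member was higher on average in CC-Sed, but none passed the test. With edgeR's quasi-likelihood test and Benjamini-Hochberg adjustment over all genes, 0 of 5 were differentially expressed (adjusted p under 0.05 and Log2FC of at least 1 in size), against 1.87% of all genes. DESeq2 and limma-voom also called 0 of 5, while over all 10851 genes they called 318 and 383. At an unadjusted p under 0.05, 1 of 5 passed, against 28.4% of all genes. All 5 had a Log2FC above 1, which 2.75% of all genes had, but that of Atp2a2 was 0.98 without CC-Sed replicate 4 and 0.94 without replicate 5.

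Log2FC was 2.01 (standard error, SE, 1.32) for Tnnc1, with a 95% interval from -0.75 to 4.76 and an edgeR adjusted p = 0.318. The intervals of Tnni1, Tpm3 and Myl3 also held 0, with edgeR adjusted p of 0.391, 0.248 and 0.325. Atp2a2 had the smallest difference and the smallest error, with a Log2FC of 1.13 (SE 0.431, 95% interval from 0.23 to 2.03, edgeR unadjusted p = 0.0151, adjusted p = 0.0972). For Atp2a2, the Sed median lay below 5 of the 6 CC-Sed values. Its mean log2 CPM was 1.05 higher in CC-Sed (two-sided exact permutation p = 0.0390, unadjusted, 1 of 20 such tests over members and comparisons). For the other 4 members this test gave p between 0.147 and 0.240 (exact permutation, 6 against 6 rats, smallest possible p 0.00216).

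**Figure D2:**
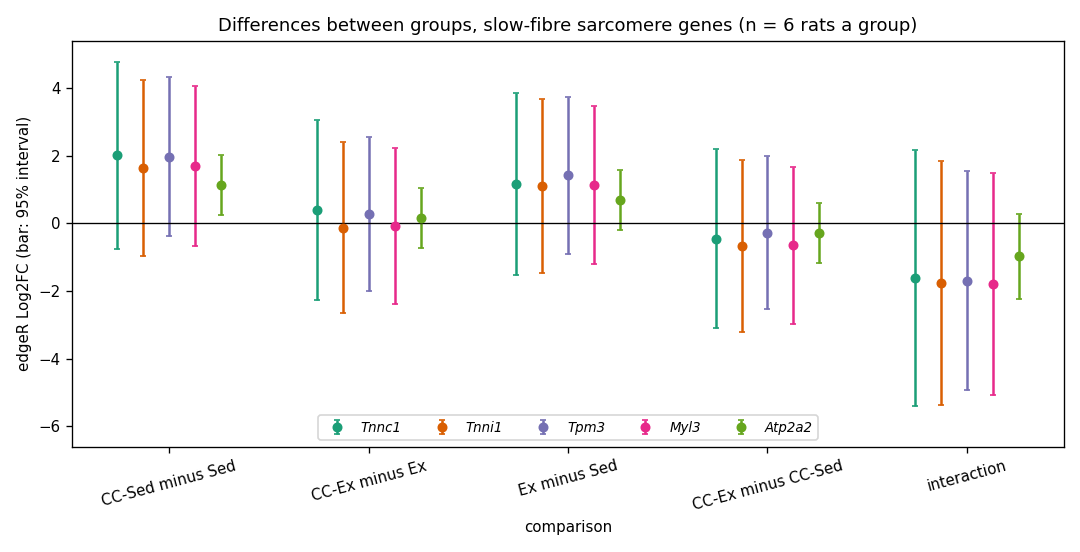
edgeR Log2FC of the 5 members in each comparison (points) with 95% intervals (bars), 6 rats a group. Only the Atp2a2 interval for CC-Sed minus Sed, from 0.23 to 2.03, leaves out 0.

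In trained rats the question was whether Ex and CC-Ex differed. None of 5 members was called by edgeR (background 0.525%), 0 by DESeq2 and 0 by limma-voom, and 0 had an unadjusted p under 0.05 (background 22.6%). Over all 10851 genes, DESeq2 called 214 and limma-voom 133. Log2FC was 0.39 (SE 1.27) for Tnnc1, -0.13 (SE 1.21) for Tnni1, 0.28 (SE 1.09) for Tpm3, -0.08 (95% interval from -2.38 to 2.22) for Myl3 and 0.16 (SE 0.426) for Atp2a2. The smallest edgeR adjusted p was 0.829. The sign depended on the scale: the mean log2 CPM of Tnnc1 was 1.44 lower in CC-Ex, where replicates 4 and 5 lay below every Ex rat, while the medians were 275 CPM in Ex and 488 in CC-Ex. Without CC-Ex replicate 5, Log2FC was 0.64 for Tnnc1, 0.13 for Tnni1, 0.53 for Tpm3, 0.17 for Myl3 and 0.34 for Atp2a2, and 0 of 5 were called. Over all genes, edgeR called only 3 without this rat. A direction in trained rats was thus not resolved at this spread.

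Training itself was compared in saline and in monocrotaline rats. Between Sed and Ex, 0 of 5 were called by edgeR (background 0%), and 0 had an unadjusted p under 0.05 (background 1.09%). All members had a positive Log2FC, from 0.69 (SE 0.428) for Atp2a2 to 1.42 (SE 1.11) for Tpm3, and 4 of 5 were above 1, which 0.138% of all genes were. This count rested on single rats: without Ex replicate 4, Log2FC lay between 0.31 for Atp2a2 and 0.85 for Tpm3, and without Sed replicate 2, 3 or 5 only Tpm3 stayed above 1. For each member, 5 of the 6 Ex values exceeded the Sed median. Between CC-Sed and CC-Ex, 0 of 5 were called by edgeR (background 0%) and 0 had an unadjusted p under 0.05 (background 2.16%), with Log2FC from -0.66 for Tnni1 to -0.27 for Tpm3. The direction was not stable, as limma-voom with quality weights gave all 5 a positive Log2FC, from 0.088 for Tnni1 to 0.65 for Tpm3. The interaction, the effect of monocrotaline in trained rats minus that in sedentary rats, was between -1.78 (SE 1.57) for Myl3 and -0.97 (SE 0.604) for Atp2a2. For the interaction, 0 of 5 were called by edgeR (background 0%) and 0 had an unadjusted p under 0.05 (background 1.42%). DESeq2 and limma-voom called 0 members, and 0 of all genes, in each of these 3 comparisons. Without CC-Ex replicate 5, 0 members were called as well (0 of all genes), with an interaction between -1.50 for Myl3 and -0.77 for Atp2a2. Log2FC from CC-Sed to CC-Ex was then -0.18 for Tnnc1, -0.39 for Tnni1, -0.0073 for Tpm3, -0.38 for Myl3 and -0.087 for Atp2a2. Without Ex replicate 4, the interaction was -0.99 for Tnnc1, -1.12 for Tnni1 and Tpm3, -1.22 for Myl3 and -0.59 for Atp2a2, and limma-voom gave -0.43 for Atp2a2. Each group enters several of the comparisons above, so these values are not independent of each other.

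The members were then compared with each other inside each group, where no group difference can enter. In Sed, Pearson's r of log2 CPM over the 6 rats lay between 0.850 and 0.994 for the 10 pairs, and 9 of 10 had a positive r with an exact permutation p under 0.05. In Ex, r lay between 0.818 and 0.999, and 6 of 10 pairs passed, with the 4 pairs of Atp2a2 not passing. In CC-Sed, r lay between 0.908 and 0.998, and 10 of 10 passed. The share of relations between a member and a gene outside the members that passed the same rule was 6.66% for Sed, 5.72% for Ex and 4.22% for CC-Sed. Adjusted over all genes, no pair passed within a group: the smallest adjusted exact permutation p was 0.243 in Sed, 0.272 in Ex and 0.368 in CC-Sed. Ranks gave Spearman's rho from 0.829 to 1.00 in Sed, from 0.886 to 1.00 in Ex and from 0.829 to 1.00 in CC-Sed.

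The pairs differed in what they rested on. Without the 2 rats farthest from the median of the first gene, r lay between 0.807 and 1.00 in Sed, between 0.509 and 0.993 in Ex and between 0.218 and 0.993 in CC-Sed. In Sed, replicates 3 and 5 were left out for Tnnc1, Tnni1, Tpm3 and Myl3, and the low replicate 2 stayed in. For Tnnc1 it had a log2 CPM of 4.89, against 7.95 to 8.28 in the other rats left. The r of these genes in Sed therefore still rested on a low rat. In CC-Sed the lowest r was that of Tnnc1 with Tpm3, at 0.218 in the 4 rats left, and these included CC-Sed replicate 1. In Ex the low values were those of Myl3 with Tnnc1, at 0.509, and with Tpm3, at 0.528. In CC-Ex no r between members is given, because the rats fell into 2 sets: for Tnnc1 the gap between replicates 4 and 5 and the other 4 rats was 9.60 on the log2 scale, of a range of 11.2. Sed came near such a split: for Tnnc1 the gap above replicates 2, 3 and 5 was 3.05, of a range of 5.55. The r in Sed is therefore also partly a contrast of 2 sets of rats.

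Subtracting the group mean from each rat allowed all 24 rats to be used. The 10 pairs then had r between 0.903 (Tnnc1 with Atp2a2) and 0.994 (Tnnc1 with Tnni1), with a permutation p = 1e-05 for each, the smallest that 100000 permutations within groups can give. Adjusted over all genes, p lay between 0.000493 and 0.000723, and Spearman's rho lay between 0.928 and 0.993. Adjusted p this small arise only where many genes outside the members also have a p at or near the limit. A low p here was thus not particular to the members, and the share of all genes was not counted. Without the 2 rats farthest from the median of the first gene, r lay between 0.861 and 0.990. These were CC-Ex replicates 4 and 5 for Tnnc1, Tnni1 and Tpm3. For Myl3 and Atp2a2 they were CC-Ex replicate 5 and CC-Sed replicate 2, so CC-Ex replicate 4 stayed in. The CC-Ex rats weigh heavily in the r over all rats, since the SD of Tnnc1 was 5.36 in CC-Ex and 2.65 to 2.78 in the other groups. The exact order was shared less: 1 of 6 Sed rats, 2 of 6 Ex rats, 3 of 6 CC-Sed rats and 0 of 6 CC-Ex rats held the same rank in all 5 members. In Sed and in Ex, 6 of 6 rats were on the same side of the group median in all 5 members, which held for 4 of 6 CC-Sed rats and 4 of 6 CC-Ex rats.

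**Figure D3:**
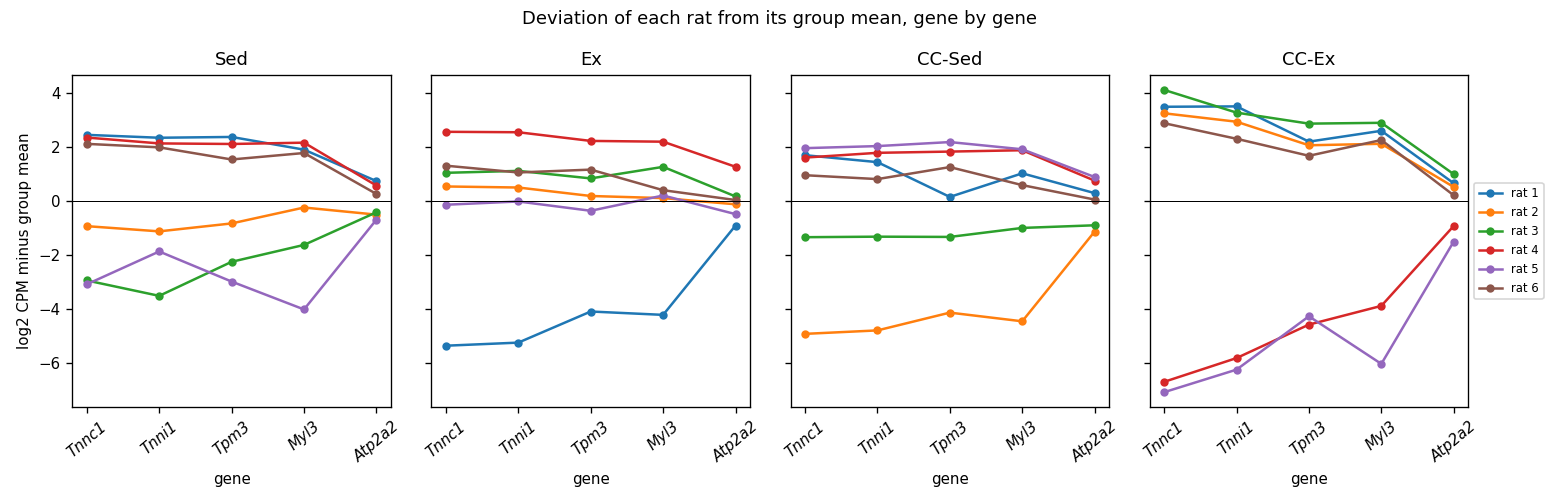
Log2 CPM of each rat minus its group mean (vertical axis) for the 5 members (horizontal axis), 1 panel a group and 1 line a rat. Ex replicate 1, CC-Sed replicate 2 and CC-Ex replicates 4 and 5 lie below 0 in all 5 members, and the deviations of Atp2a2 are small.

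How tightly 2 members followed each other can be read from their ratio inside a rat. The log2 ratio of Tnnc1 to Tnni1, both troponin subunits, had a pooled within-group SD of 0.489, against 3.56 and 3.26 for the genes themselves. The ratios of Tnnc1 to Tpm3 and of Tnnc1 to Myl3 had SDs of 1.11 and 1.00. For each doubling of Tnnc1 between rats of a group, Tnni1 changed by 0.91, Myl3 by 0.78, Tpm3 by 0.73 and Atp2a2 by 0.20 on the log2 scale. Tpm3 was 0.90 below Tnnc1 (log2 CPM, difference -0.90) in CC-Sed replicate 1, where the other CC-Sed rats had it between 0.66 and 1.44 above. It was 4.13 and 4.82 above Tnnc1 in CC-Ex replicates 4 and 5. Such ratios compare rats and not the levels of the genes, for which transcript lengths would be needed.

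Each member was next set against the fast-fibre gene of the same role: Tnnc2 and Tnni2 for the troponins, Tpm1 for Tpm3, Myl1 for Myl3, and Atp2a1 (SERCA1) for Atp2a2. This log2 ratio of counts within a rat needs no library scaling. The Tnnc1/Tnnc2 ratio was -7.09 ± 2.69 (SD, n = 6) for Sed rats and -4.30 ± 3.04 for CC-Sed rats, and -5.56 ± 2.95 for Ex rats and -6.86 ± 5.54 for CC-Ex rats. The Atp2a2/Atp2a1 ratio was -2.05 ± 0.621 for Sed rats and -0.76 ± 1.28 for CC-Sed rats, and -1.36 ± 1.05 for Ex rats and -1.43 ± 1.08 for CC-Ex rats. The groups overlapped for every pair.

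In CC-Sed the ratio was higher than in Sed by 2.78 for Tnnc1, 2.33 for Tnni1, 2.89 for Tpm3, 2.48 for Myl3 and 1.28 for Atp2a2, and for each pair the Sed median lay below 5 of the 6 CC-Sed values. None of the 20 tests over pairs and comparisons had a p under 0.05 (two-sided exact permutation, unadjusted), and the smallest was p = 0.0563 for Atp2a2. The result changed without 1 rat. Without CC-Sed replicate 2, the 5 ratios differed by 3.87, 3.39, 3.92, 3.48 and 1.65, with exact permutation p of 0.0260, 0.0346, 0.0238, 0.0195 and 0.0173. Without CC-Sed replicate 3, the Atp2a2 ratio also passed (difference 1.56, exact permutation p = 0.0390). Of all ratio tests with 1 rat left out, only these 6 passed, while 224 kept their sign without passing and 10 changed sign. The 6 are unadjusted and not independent, since the members moved together. CC-Sed replicate 2 was the lowest CC-Sed rat, so leaving it out raises the difference. Between Ex and CC-Ex the 5 differences lay between -1.32 and -0.07 with exact permutation p of at least 0.602. Without CC-Ex replicate 5 they were 0.067 for Tnnc1, -0.15 for Tnni1, 0.55 for Tpm3, 0.35 for Myl3 and 0.18 for Atp2a2.

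**Figure D4:**
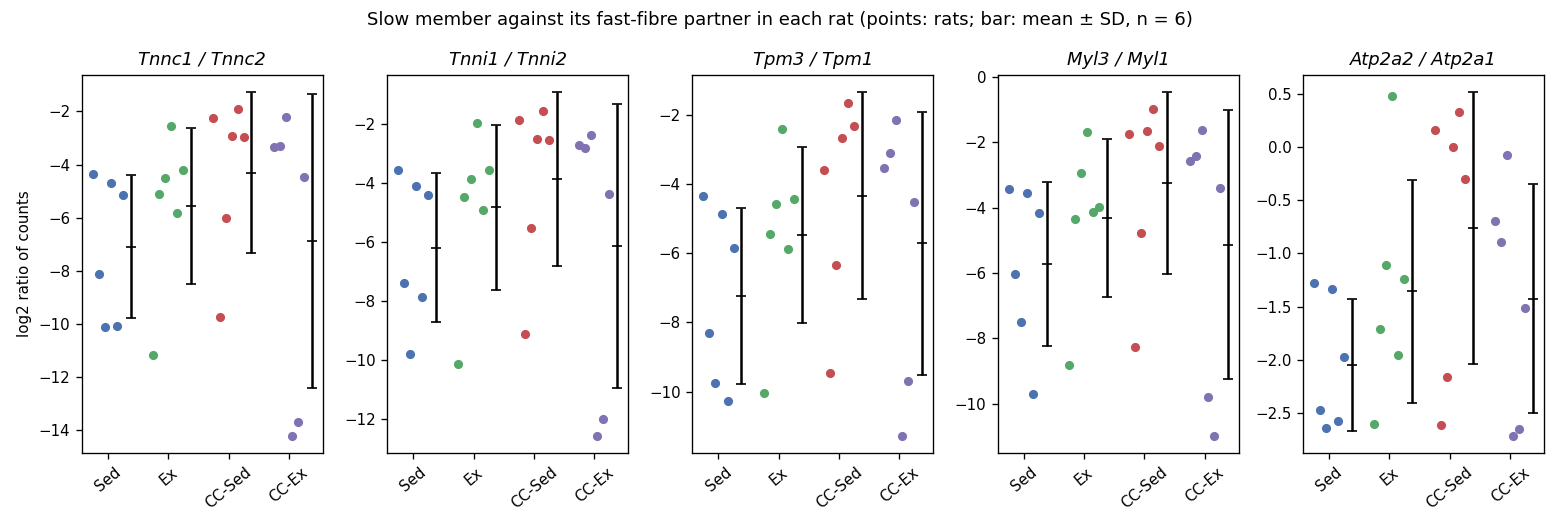
Log2 ratio of the counts of each member to its fast-fibre partner (vertical axis) in each rat, by group. Points are rats, and bars are mean ± SD (n = 6). CC-Sed replicate 2 is the lowest CC-Sed rat in each panel, and the 2 lowest rats of CC-Ex lie below -12 for Tnni1/Tnni2 and below -13 for Tnnc1/Tnnc2.

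Other genes of the fibre programme were ranked by their likeness to the members, the mean over members and groups of the within-group r of log2 CPM, a description with no p. All points share the libraries and their depth, and in CC-Ex this r is set by replicates 4 and 5. Of 10 slow and oxidative genes outside the members, 10 had a positive mean r, with a median of 0.882. Ldhb, the heart-type lactate dehydrogenase subunit, was most like the members of all genes, at 0.974, and Myoz2, a Z-disc protein of slow fibres, was at 0.959. Over all genes outside the members, 51.8% were positive and the median was 0.0234. In the groups without 2 sets of rats, the mean r of Ldhb lay between 0.960 in Ex and 0.977 in CC-Sed.

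Of 15 fast sarcomere genes, 2 had a positive mean r and the median was -0.554. Myh4, the heavy chain of type IIb fibres, was at -0.808. The exceptions were Tpm2, a tropomyosin also used by slow fibres, at 0.879, and Myh2, the heavy chain of the oxidative type IIa fibres, at 0.883. Of 24 fibre type regulators, 12 were positive, with Prox1 at 0.943 and Esrrg, an oxidative nuclear receptor, at 0.851. At the other end stood Ppp3ca, a catalytic subunit of calcineurin, at -0.834, and Sox6, a repressor of slow-fibre genes, at -0.757. Of 9 sarcomere genes used by all fibres, 3 were positive and the median was -0.0577. Among these 3, Actn2 at 0.943 is also counted in the slow and oxidative list, so the 2 lists overlap. The others were Ldb3 at 0.331 and Ttn at 0.0147.

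The 10 genes most like the members were Ldhb, Fzd9, Myoz2, Ncf1, Myh7b, Lpl, Actn2, Prox1, Trpc1 and Fgf1, with mean r from 0.939 to 0.974. The 5 most opposite were Rpn2, Zbed6, Csnk1g3, Egln2 and Tbc1d19, with mean r from -0.893 to -0.859. The members' own mean r lay between 0.928 and 0.973. It includes each member's r with itself, so it is raised beside the values of the other genes.

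**Figure D5:**
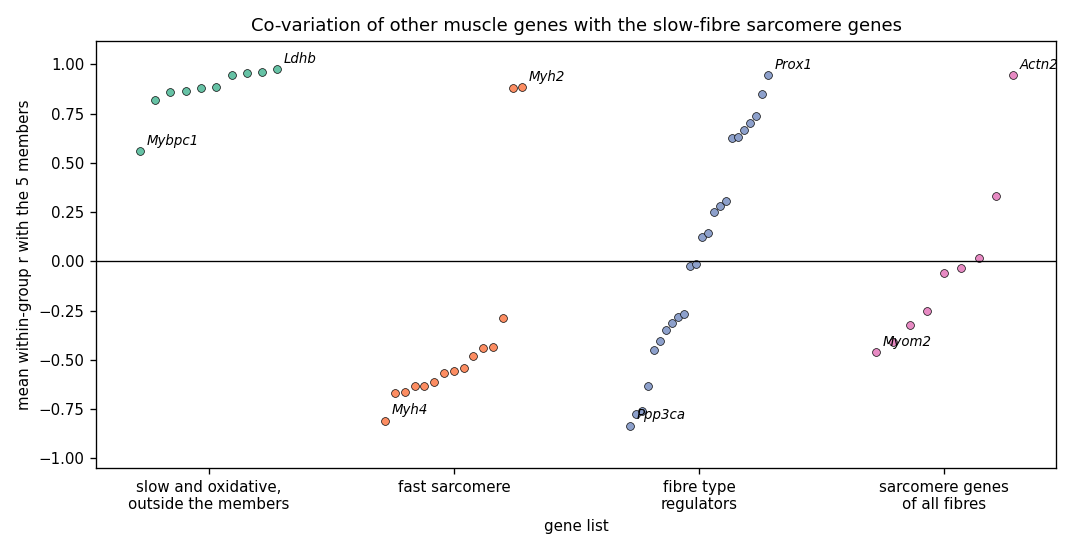
Mean within-group Pearson r with the 5 members (vertical axis) for the genes of 4 lists (horizontal axis), 1 point a gene. The slow and oxidative genes all lie above 0.55, and the fast sarcomere genes lie below 0 except Tpm2 and Myh2.

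The lists were also compared between groups. Between Sed and CC-Sed, 0 of 10 slow and oxidative genes and 0 of 15 fast sarcomere genes were called by edgeR, against 1.87% of all genes, and 1 and 6 had an unadjusted p under 0.05, against 28.4% of all genes. The 6 fast genes were all lower, and the median Log2FC was -0.41 over the fast list and 0.78 over the slow list, against 0.02 over all genes. The largest were Pvalb, a calcium buffer of fast fibres, with a Log2FC of -1.39 (SE 0.563, edgeR adjusted p = 0.117), and Myoz2, with a Log2FC of 1.52 (SE 1.13, edgeR adjusted p = 0.379). Between CC-Sed and CC-Ex, 1 of 10 slow and oxidative genes had an unadjusted p under 0.05 (2.16% of all genes): Csrp3, a muscle LIM protein, with a Log2FC of -2.24 (SE 0.861, edgeR adjusted p = 1.00). Of the 24 regulators between Sed and CC-Sed, 0 were called, and 4 higher and 3 lower genes had an unadjusted p under 0.05. Only 1 of 24 had an edgeR adjusted p under 0.05, against 6.46% of all genes. It was Ppard, a nuclear receptor that drives fat oxidation (edgeR adjusted p = 0.0210). Its Log2FC of 0.73 (SE 0.178) was below the size needed for a call.

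Markers of other cell types were set beside these results. Within groups, the summed endothelial markers (4 of 5 genes) had an r with the mean member level of 0.304 for Sed, 0.435 for Ex and -0.230 for CC-Sed. Their summed level spanned 132 to 217 CPM among Sed rats and 167 to 250 CPM among CC-Sed rats. The smooth muscle markers (3 of 3 genes) had an r of 0.870 in Sed, -0.824 in Ex and 0.680 in CC-Sed. The fibroblast markers (5 of 5 genes) had an r of -0.058 in Sed, 0.115 in Ex and 0.779 in CC-Sed. For the Schwann cell markers (2 of 4 genes) it was 0.512 in Sed, -0.609 in Ex and 0.740 in CC-Sed. For the satellite cell markers (3 of 4 genes) it was -0.688 in Sed, 0.603 in Ex and -0.037 in CC-Sed. In CC-Ex the r of the 8 lists of other cell types ran from 0.567 for the adipocyte marker to 0.975 for the endothelial markers, over rats that fell into 2 sets. The library number in the labels had an r with the mean member level of 0.743 in Ex and 0.515 in CC-Sed, and of -0.212 in Sed and -0.326 in CC-Ex. With the library number as a covariate no member was called, and the lowest edgeR adjusted p was 0.0935, while Log2FC of Tpm3 between Ex and CC-Ex moved from 0.28 to 0.97. Library numbers ran from 1 to 14 in CC-Ex and from 9 to 24 in Sed. This covariate thus cannot be fully separated from group. The part of the cell markers in the results was not tested.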

How the data were processed

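Reads were trimmed with Trim Galore and assigned by the authors to rat transcripts (mRatBN7.2) with Salmon, which were then summed to genes. The deposited values, made by the authors, are estimated counts per gene, already whole and not scaled, with no value below 10, and how rows were filtered is not given in the sources used here. Salmon shares reads between similar copies by estimate, so paralog pairs such as Tpm3 and Tpm1 are less certain. Groups and replicate numbers came from the labels, and animals were not pooled.

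The model was fitted with edgeR 4.0.16 in R 4.3.3 (TMM, a quasi-likelihood fit of 4 groups over 24 rats, Benjamini-Hochberg over 10851 genes). The expression filter removed no gene. A Log2FC's SE is its size over the root of F. Log2 CPM used a prior count of 2, and ratios a pseudocount of 0.5. Correlations and permutation tests were run in Python 3.11.15. Tested on simulated data with 200 genes changed 4-fold among 10851, edgeR recovered 200 with 2 false calls, DESeq2 1.42.0 200 with 1 and limma-voom (limma 3.58.1) 200 with 1. These changes had a smaller spread than the members. The rats of a group were called 2 sets where the same gap exceeded 50% of the range in at least 4 members. At least 2 rats had to lie on each side. This rule was chosen after seeing the values, and only CC-Ex met it. In Ex, replicate 1 alone lay below such a gap for Tnnc1, Tnni1, Tpm3 and Myl3, so Ex did not meet the rule. In Sed, replicates 2, 3 and 5 lay below the widest gap for Tnnc1, Tnni1, Tpm3 and Atp2a2. Its share of the range was 0.551 for Tnnc1 and 0.531 for Tnni1, but 0.442 for Tpm3 and 0.475 for Atp2a2. Sed thus came near the rule without meeting it.

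The members and lists were chosen with earlier results of these data known. Genes named are the members, their fast partners, list genes that passed a test or had the largest Log2FC, and the 10 most and 5 least alike. List genes quoted for their likeness were chosen after their values were seen. Same-numbered rats are different animals and their residuals did not pair (mean correlation between -0.231 and 0.0947 over the comparisons). The smallest chi-square per degree of freedom between libraries was 28.1, so no library was a repeat. Alternatives were DESeq2, upper-quartile scaling, other filters, 12 rats alone, a replicate block, the library number, limma-voom, other priors and pseudocounts, ranks and each rat left out. Precision is limited by the spread between rats.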

Additional observations from a re-analysis of the deposited data

Results flagged for a closer look

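Ex replicate 1 stood apart from the other 5 trained saline rats in 5 measures, by the ratio of its gap to the group's range (Dixon's ratio, taken against the 95% critical value for 6 samples). Its log2 CPM was 1.92 for Tnnc1 (ratio 0.659), 2.50 for Tnni1 (ratio 0.671) and 4.93 for Myl3 (ratio 0.674). Its log2 ratio was -10.1 for Tnni1/Tnni2 (ratio 0.639) and -8.83 for Myl3/Myl1 (ratio 0.629). Over 40 sets of 6 values tested, 5 were past the critical value, and chance alone gives about 1 in 20. The 5 are not independent, since these genes moved together in each rat.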

How the results depend on the processing

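No member was called in any comparison under any of the alternatives, the replicate block included (0 called with the block, also for the interaction), and the lowest adjusted p in any of them was 0.0517, for Atp2a2 between Sed and CC-Sed without CC-Sed replicate 2. At the same thresholds, these alternatives called 73 to 404 of all genes between Sed and CC-Sed. Between Ex and CC-Ex they called 1 to 251, and in the other comparisons 0. The replicate numbers do not pair the rats. Upper-quartile scaling put the median Log2FC of all genes between -0.0608 and 0.0242 over the comparisons, and DESeq2 size factors at no more than 0.0276. With Spearman's rho the within-group pair count went from 6 to 10 in Ex and from 10 to 9 in CC-Sed, and stayed at 9 in Sed.

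Several Log2FC values changed sign, among them those of all 5 members between CC-Sed and CC-Ex with limma-voom. For Ex and CC-Ex, Tnni1 became 0.16 with the replicate block, 0.14 with the library number and 0.36 with limma-voom, and Myl3 became 0.17, 0.39 and 0.45. For CC-Sed and CC-Ex, limma-voom gave 0.18 for Tnnc1, 0.088 for Tnni1, 0.65 for Tpm3, 0.23 for Myl3 and 0.15 for Atp2a2, and Tpm3 became 0.038 with the replicate block and 0.24 with the library number. With 1 rat left out, Log2FC for Ex and CC-Ex ranged from -0.043 to 1.01 for Tnnc1, -0.46 to 0.52 for Tnni1, -0.14 to 0.85 for Tpm3, -0.39 to 0.47 for Myl3 and -0.053 to 0.54 for Atp2a2, and for CC-Sed and CC-Ex from -0.69 to 0.15 for Tpm3. Ratio differences from unlogged means for Ex and CC-Ex were 0.66 for Tnnc1, 0.20 for Tnni1, 0.70 for Tpm3, 0.36 for Myl3 and 0.093 for Atp2a2, and with 1 rat left out they ranged from -2.42 to 0.17 for Tnnc1, -1.16 to 0.86 for Tpm3, -1.72 to 0.35 for Myl3 and -0.34 to 0.30 for Atp2a2. The cause of these changes was not tested. Correlation alternatives were not run in CC-Ex, where the rats fell into 2 sets.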
